A study of Rattus norvegicus with 12 samples.

Results

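The 6 genes described here belong to the acid-base machinery of kidney intercalated cells and were followed across 4 doses of cephaloridine: Rhcg, Atp6v0d2, Atp6v1b1, Slc4a1, Slc26a4 and Foxi1. They were picked by name, and every array probe whose gene name or transcript accession led to 1 of these 6 genes was taken. That gave 7 probes, 2 of them for Slc4a1, among 41012 probes and 35527 genes or transcripts on the array. All 7 probes were well above background on all 12 arrays, so all 6 genes were among the 20769 tested. Rhcg, Atp6v0d2, Slc4a1 and Slc26a4 were matched by accession, and Atp6v1b1 and Foxi1 by their symbols, which the array design marks as predicted genes.

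The RNA came from the kidney cortex of male Fisher 344 rats aged 8 weeks. Each rat received cephaloridine, a cephalosporin antibiotic known to injure the proximal tubule, in 1 intravenous injection, at a dose of 150, 300 or 600 mg/kg or as saline alone (0 mg/kg), and was killed 24 h later. The 4 groups (control, low, middle and high) held 3 animals each with 1 array per animal, hybridised with Cy3-labelled RNA on 1-colour Agilent arrays. The study set out to profile doses below and within the toxic range, and each dose is compared here with control and with the other doses. Whole cortex was used, so in these bulk samples a change in the number of intercalated cells and a change in RNA per cell cannot be told apart.

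Intercalated cells are a minority cell type of the connecting tubule and collecting duct. They carry acid or base with a vacuolar proton pump (V-ATPase), a multi-subunit rotary enzyme, and with chloride/bicarbonate exchangers on the opposite membrane. Type A cells secrete protons with the pump in the apical membrane and return bicarbonate to blood through Slc4a1 (anion exchanger AE1, also the band 3 protein of red blood cells), whereas type B and related cells secrete bicarbonate through apical Slc26a4 (pendrin). Rhcg is a channel for ammonia, the main carrier of excreted acid. Atp6v1b1 and Atp6v0d2 encode the B1 and d2 pump subunits, which in kidney mark intercalated cells and have the widely expressed paralogs Atp6v1b2 and Atp6v0d1. Foxi1 is the forkhead transcription factor on which intercalated cell identity depends, and it is known to act on pump subunit and exchanger genes.

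Because Foxi1 is itself a member, the promoter windows of the others were searched for a forkhead core. RefSeq promoter windows (build GRCr8, 300 bases, from 250 bases before to 50 after the gene start) were found for 4 of the 6 members: Rhcg, Atp6v1b1, Slc26a4 and Foxi1. The motif searched was TGTTTA on either strand, with the longer TGTTTAC as a stricter form, so that every match of the longer form is also a match of the shorter. Of the 4 windows, 1 held a match: Atp6v1b1, at positions -93 to -88 from the gene start, on the strand of the gene, in the longer form too. The windows of Rhcg, Slc26a4 and Foxi1 held no match to either form. Among all 33469 promoter windows of the same length, 13.7% held TGTTTA and 3.78% held TGTTTAC. The windows of Atp6v1b1, which holds the match, and of Rhcg, the member with the largest change at the high dose and no match, are printed 5′ to 3′ on the strand of the gene, with the match in capitals. The Atp6v1b1 window is chr4:117781194-117781493 (plus strand) and the Rhcg window is chr1:142965113-142965412 (minus strand).
Atp6v1b1: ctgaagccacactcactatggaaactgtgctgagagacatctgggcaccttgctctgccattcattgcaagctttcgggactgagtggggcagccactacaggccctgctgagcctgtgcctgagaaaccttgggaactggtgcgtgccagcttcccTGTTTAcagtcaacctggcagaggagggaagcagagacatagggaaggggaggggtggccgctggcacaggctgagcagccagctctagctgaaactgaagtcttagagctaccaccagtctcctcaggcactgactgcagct
Rhcg: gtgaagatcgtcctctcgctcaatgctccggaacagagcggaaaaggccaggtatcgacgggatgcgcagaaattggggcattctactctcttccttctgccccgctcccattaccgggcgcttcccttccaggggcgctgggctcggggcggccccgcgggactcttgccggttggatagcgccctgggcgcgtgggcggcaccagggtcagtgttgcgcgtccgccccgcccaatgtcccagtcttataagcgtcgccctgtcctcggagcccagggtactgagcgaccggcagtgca

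The 12 arrays were alike in signal. Their 75th percentiles ran from 627 to 712 intensity units, 59.3% to 63.3% of probes were well above background, 0 spots were saturated, and the correlation of log2 levels between arrays ran from 0.989 to 0.997. The arrays lay on 4 slides. Slide 1 carried the 3 controls and low 1, slide 2 low 2 and middle 1, slide 3 low 3 and middle 2, and slide 4 middle 3 and the 3 high animals. The control and the high arrays had no slide in common, and their comparison and that of slides 1 and 4 cannot be told apart without the arrays in between, so values with the slide as a block are given for the members and their relatives, and counts for the lists. Levels below are log2 processed signals relative to the 75th percentile of the same array, and a level is compared only within its own probe. Changes are differences of these levels ± the standard error from limma, with 3 animals per group and Benjamini-Hochberg adjusted p-values over all 20769 genes; a gene is called, and said to rise or fall, where that p is under 0.05. The p-values measure the spread between arrays of the same group, 1 per animal, pooled over the 4 groups. That spread can include slide differences in the low and middle groups, whose animals lay on different slides. It holds none in the control and high groups.

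At 600 mg/kg, 4 of the 6 members rose against control: the ammonia channel Rhcg, the pump subunits Atp6v0d2 and Atp6v1b1, and the anion exchanger Slc26a4. None of the 6 fell, and the 2 that were not called, Foxi1 and Slc4a1, had values above 0. The rises were modest, from 1.16-fold for Slc26a4 to 1.54-fold for Rhcg. The same 4 members were called at 300 mg/kg and none at 150 mg/kg. Over all tested genes, 34.8% were called at 600 mg/kg in either direction and 18% were called higher, against 13% and 8.22% at 300 mg/kg and 0.101% in either direction at 150 mg/kg. The median change of the 6 members was 0.35 at 600 mg/kg and 0.33 at 300 mg/kg on the log2 scale, beside medians of -0.0021 and 0.024 over all genes tested.

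Rhcg had levels of 2.29, 2.23 and 2.35 in the controls, 2.53, 2.39 and 2.55 at 150 mg/kg, 2.73, 2.82 and 2.70 at 300 mg/kg and 2.84, 2.97 and 2.94 at 600 mg/kg. The 4 groups did not overlap at any step, and each dose lay above the one before it. Of all tested genes, 11% had all low animals above the controls. The share separated at the later steps is not given. Rhcg was 0.62 ± 0.06 higher at 600 mg/kg than in control (1.54-fold, adjusted p = 8.81e-05, limma) and 0.46 ± 0.06 higher at 300 mg/kg (1.37-fold, adjusted p = 0.00368, limma). Neighbouring doses differed by less: 0.20 ± 0.06 between control and 150 mg/kg (adjusted p = 0.327), 0.26 ± 0.06 between 150 and 300 mg/kg (adjusted p = 0.122) and 0.16 ± 0.06 between 300 and 600 mg/kg (adjusted p = 0.0819), none of them called by limma. With the slide as a block the change at 600 mg/kg was 0.76 ± 0.13 and was still called (adjusted p = 0.0358, limma), while that at 300 mg/kg was 0.55 ± 0.10 and was not (adjusted p = 0.0841, limma).

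Atp6v0d2, the intercalated cell form of the d subunit in the membrane sector of the pump, followed the same order of doses. Its levels were 2.25, 2.31 and 2.51 in the controls, 2.64, 2.48 and 2.50 at 150 mg/kg, 2.72, 2.81 and 2.67 at 300 mg/kg and 2.86, 2.90 and 2.88 at 600 mg/kg. The control and 150 mg/kg groups overlapped, the other neighbours did not, and the SD of the 3 high animals was 0.018. For these other steps too, the share of all tested genes that were separated is not given. Atp6v0d2 was 0.52 ± 0.07 higher at 600 mg/kg than in control (1.43-fold, adjusted p = 0.000547, limma) and 0.38 ± 0.07 higher at 300 mg/kg (1.3-fold, adjusted p = 0.0121, limma). With the slide as a block these changes were 0.76 ± 0.16 and 0.55 ± 0.13, larger in size but no longer called (adjusted p = 0.0574 and 0.12, limma). The call at 300 mg/kg was also lost without control 1 or control 2 (adjusted p up to 0.0524, limma) and with only the compared groups in the fit.

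Atp6v1b1, the kidney form of the nucleotide-binding B subunit in the cytosolic sector, reached its highest mean at 300 mg/kg. Its levels were -1.38, -1.42 and -1.09 in the controls, -0.95, -1.26 and -1.17 at 150 mg/kg, -0.77, -0.85 and -0.77 at 300 mg/kg and -0.96, -0.80 and -0.72 at 600 mg/kg. The animals at 300 and 600 mg/kg all lay above the controls and overlapped each other, and the 150 mg/kg group overlapped with the controls. Atp6v1b1 was 0.50 ± 0.10 higher at 300 mg/kg (1.41-fold, adjusted p = 0.0162, limma) and 0.47 ± 0.10 higher at 600 mg/kg (1.38-fold, adjusted p = 0.0063, limma) than in control. The difference between 600 and 300 mg/kg was -0.03 with a 95% interval of -0.26 to 0.20 (adjusted p = 0.875, limma). With the slide as a block the changes were 0.75 ± 0.19 at 300 mg/kg and 0.69 ± 0.24 at 600 mg/kg, and neither was called (adjusted p = 0.135 and 0.158, limma). The call at 300 mg/kg was lost without control 1 or control 2 (adjusted p up to 0.0666, limma) and with only the compared groups in the fit.

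**Figure D1:**
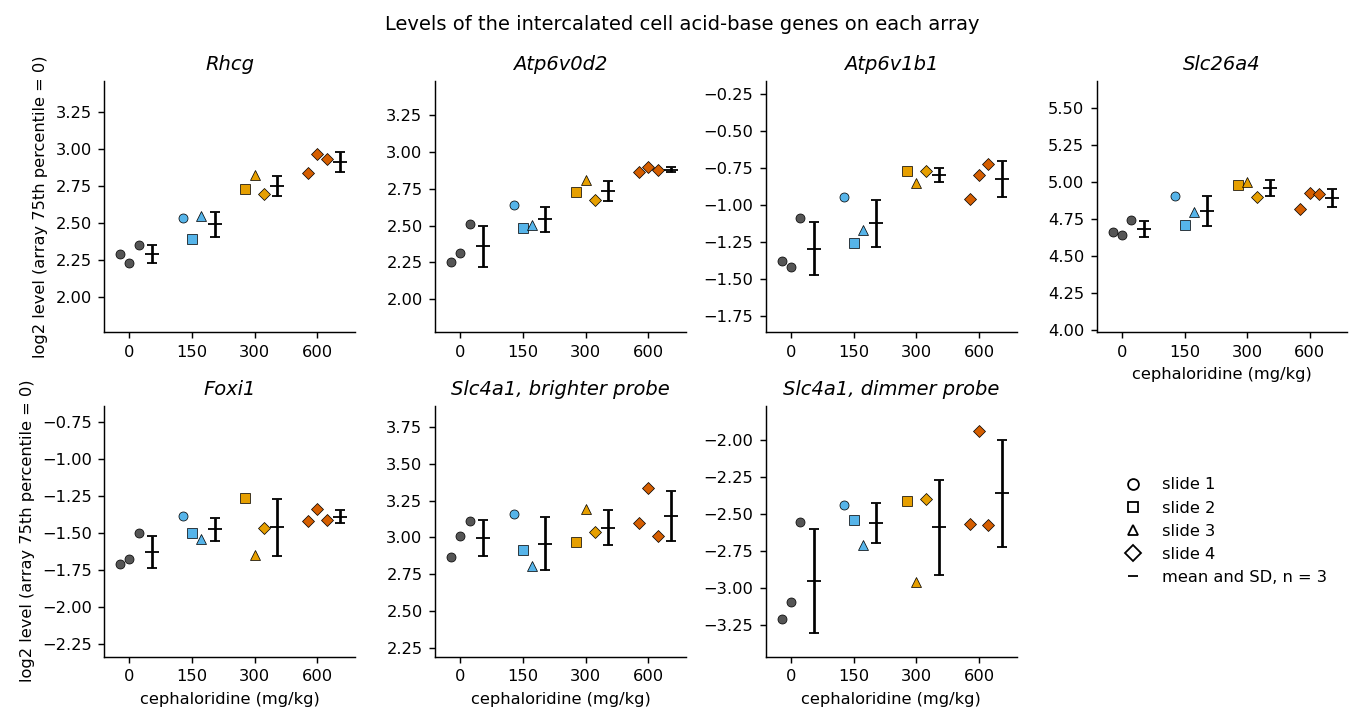
Log2 level of each member on each of the 12 arrays, relative to that array's 75th percentile, by dose of cephaloridine in mg/kg; marker shapes give the slide and the bars the mean and SD of 3 animals. The panels span the same log2 range, and Rhcg moves from 2.29 in the controls to 2.91 at 600 mg/kg (group means) while the Slc4a1 probes overlap between all groups.

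Slc26a4, the chloride/bicarbonate exchanger of base-secreting intercalated cells, had the smallest of the called changes. Its levels were 4.66, 4.64 and 4.74 in the controls, 4.91, 4.71 and 4.80 at 150 mg/kg, 4.98, 5.0 and 4.90 at 300 mg/kg and 4.82, 4.93 and 4.92 at 600 mg/kg. All animals at 300 and 600 mg/kg lay above the highest control, and the 2 dose groups overlapped each other. Slc26a4 was 0.28 ± 0.06 higher at 300 mg/kg (1.21-fold, adjusted p = 0.0172, limma) and 0.21 ± 0.06 higher at 600 mg/kg (1.16-fold, adjusted p = 0.02, limma). The call at 600 mg/kg did not hold when control 1 or 2 or high 2 or 3 was left out, with adjusted p up to 0.0705, and that at 300 mg/kg without control 1 or control 2, with adjusted p up to 0.0693 (limma). Both calls were lost with no filter on dim probes, and the call at 300 mg/kg was also lost with only the compared groups in the fit and under quantile normalization, which gave 0.21 (adjusted p = 0.0547, limma). With the slide as a block the changes were 0.46 ± 0.09 and 0.45 ± 0.12, larger in size and not called (adjusted p = 0.0969 and 0.0863, limma).

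Slc4a1, the basolateral exchanger of acid-secreting cells, was measured by 2 probes, neither of which was called at any dose. The brighter probe, which stands for the gene, read 2.87, 3.01 and 3.11 in the controls, 3.16, 2.92 and 2.80 at 150 mg/kg, 2.97, 3.19 and 3.04 at 300 mg/kg and 3.09, 3.34 and 3.01 at 600 mg/kg, with all 4 groups overlapping. Its change at 600 mg/kg was 0.15 ± 0.11 with a 95% interval of -0.10 to 0.40 (adjusted p = 0.327, limma). For this probe and without a slide block, a rise as large as that of Slc26a4 lay inside the interval. One as large as that of Rhcg or Atp6v0d2 did not. The dimmer probe read -3.21, -3.10 and -2.55 in the controls, -2.44, -2.54 and -2.71 at 150 mg/kg, -2.41, -2.96 and -2.40 at 300 mg/kg and -2.57, -1.94 and -2.57 at 600 mg/kg, where high 2 stood above the other high animals on both probes. Its change at 600 mg/kg was 0.59 ± 0.23 (adjusted p = 0.066 over 24741 probes, limma). The 95% interval of the dimmer probe, 0.50 to either side of that value, held the changes of Rhcg and Atp6v0d2. The correlation of the 2 probes over the 12 arrays was 0.51. With the slide as a block the brighter probe's change was 0.49 ± 0.25 (adjusted p = 0.303, limma).

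Slc4a1 is also a red blood cell gene, so genes of red blood cells and their precursors are given beside it. Of 12 such genes listed, 5 were tested. Of these 5, 4 fell at 600 mg/kg and 1 at 300 mg/kg, and the median change of the 5 was -0.42 and -0.44. Among all 20769 tested genes, 3493 fell at 600 mg/kg and 999 at 300 mg/kg. Their summed signal, in multiples of the 75th percentile, ran from 72.6 to 80.1 in the controls, 75.7 to 82.2 at 150 mg/kg, 44.3 to 66.0 at 300 mg/kg and 49.7 to 64.8 at 600 mg/kg. Hbb, a beta globin gene named after its values were seen, fell by 1.01 ± 0.22 on the log2 scale at 600 mg/kg (adjusted p = 0.00609, limma; 0.226 with the slide as a block). None of these 5 genes was called at either dose with the slide as a block. Rhag, the red blood cell relative of Rhcg, was not well above background on all arrays of any group and was not tested. The part of red blood cell RNA in the Slc4a1 values was not tested.

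Foxi1, the transcription factor, was not called at any dose. Its levels were -1.71, -1.67 and -1.50 in the controls, -1.38, -1.50 and -1.54 at 150 mg/kg, -1.26, -1.65 and -1.46 at 300 mg/kg and -1.42, -1.33 and -1.41 at 600 mg/kg. The high animals lay above all controls, whereas middle 2 lay among them. The change was 0.24 ± 0.09 at 600 mg/kg, with a 95% interval of 0.03 to 0.45 before adjustment over genes (adjusted p = 0.0697, limma), and 0.17 ± 0.09 at 300 mg/kg, with an interval of -0.04 to 0.37 (adjusted p = 0.252, limma). At 600 mg/kg it was called under quantile normalization, with the authors' value table, with only the compared groups in the fit, and without control 3, middle 1 or middle 2. With the slide as a block the change at 600 mg/kg was 0.38 ± 0.19 (adjusted p = 0.288, limma).

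**Figure D2:**
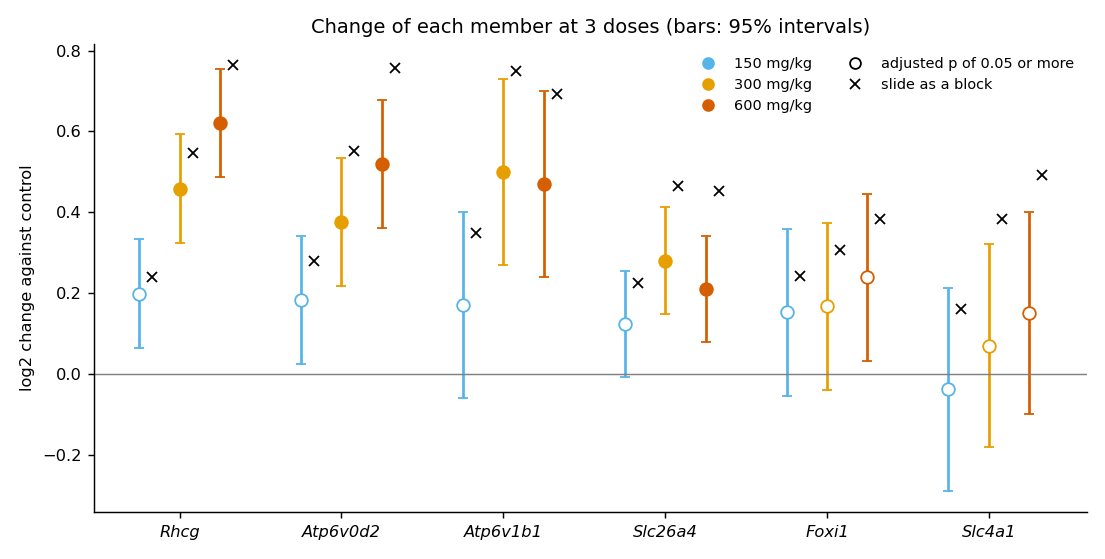
Log2 change of each member against control at 150, 300 and 600 mg/kg (3 animals per group), with 95% intervals from limma; filled points have an adjusted p under 0.05 and crosses are the values with the slide as a block. Filled points appear at 300 and 600 mg/kg for Rhcg, Atp6v0d2, Atp6v1b1 and Slc26a4 only, and each cross lies above its point.

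At 150 mg/kg the members stood between -0.04 for Slc4a1 and 0.20 for Rhcg. Of the 6, Rhcg was the 1 for which all 3 low animals lay above the controls, a pattern found in 11% of all tested genes at that dose. At 300 mg/kg the animals all lay above the controls for 4 of the 6 members, and at 600 mg/kg for 5 of the 6, beside 20.5% and 28.5% of all tested genes. Between 150 and 300 mg/kg none of the members was called, where 0.231% of genes were called in either direction. Between 300 and 600 mg/kg none was called either, although 22.5% of all genes were. Between 150 and 600 mg/kg, where 27% of genes were called, 2 of the 6 members rose: Rhcg by 0.42 ± 0.06 (adjusted p = 0.000967, limma; 0.031 with the slide as a block) and Atp6v0d2 by 0.34 ± 0.07 (adjusted p = 0.00696, limma; 0.0753 with the slide as a block).

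Comparisons within a slide do not carry slide differences, and each slide held neighbouring doses. Rhcg was higher at the higher dose on every slide: low 1 exceeded the mean of the controls by 0.24, middle 1 exceeded low 2 by 0.34, middle 2 exceeded low 3 by 0.27, and the mean of the high animals exceeded middle 3 by 0.22. Atp6v0d2 was likewise higher at the higher dose on every slide, by 0.28, 0.24, 0.30 and 0.21 in the same order. Atp6v1b1 and Slc26a4 were higher on slides 1 to 3, by 0.35, 0.48 and 0.32 and by 0.23, 0.27 and 0.20, while on slide 4 the high animals differed from middle 3 by -0.06 and -0.01. Foxi1 was 0.24 higher on slides 1 and 2, then -0.11 and 0.08 on slides 3 and 4. The brighter Slc4a1 probe was higher at the higher dose on all slides, by 0.16, 0.05, 0.39 and 0.11. On slide 3 the dimmer probe went the other way, from -2.71 in low 3 to -2.96 in middle 2. Most of these differences set single arrays against each other, and no test was made within slides.

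Members with close relatives were set beside them, as the change in the log2 difference of member and relative within each array. Of these relatives, Rhbg is itself on the list of other intercalated cell genes. Atp6v0d2 moved up against Atp6v0d1 by 0.69 at 600 mg/kg and 0.44 at 300 mg/kg, and Atp6v1b1 against Atp6v1b2 by 0.66 and 0.44. In each of these cases all 3 dosed animals lay above all 3 controls. For levels of single genes, that pattern was found in 28.5% of all tested genes at 600 mg/kg and 20.5% at 300 mg/kg. Its share among differences of other gene pairs was not computed. The relatives themselves fell at 600 mg/kg: Atp6v0d1 by 0.17 ± 0.04 (adjusted p = 0.0122, limma) and Atp6v1b2 by 0.19 ± 0.05 (adjusted p = 0.0123, limma) on the log2 scale, under every scaling tried and uncalled with the slide as a block. At 300 mg/kg neither was called, with -0.07 for Atp6v0d1 and 0.06 for Atp6v1b2. Rhbg, the ammonia transporter of the basolateral membrane, rose with Rhcg, by 0.38 ± 0.07 at 600 mg/kg (adjusted p = 0.00216, limma) and 0.36 ± 0.07 at 300 mg/kg (adjusted p = 0.0115, limma), with adjusted p of 0.0733 and 0.0942 with the slide as a block. Rhcg moved up against Rhbg by 0.24 and 0.10, the latter by -0.021 with the slide as a block. Slc4a2, the widely expressed exchanger AE2, rose by 0.27 ± 0.09 and 0.33 ± 0.09 (adjusted p = 0.0429 and 0.0391, limma; 0.154 and 0.183 with the slide as a block), and the change of Slc4a1 differed from that of Slc4a2 by -0.12 and -0.26. The call of Slc4a2 at 600 mg/kg was lost when control 1, control 2 or any 1 of the low or high animals was left out (adjusted p up to 0.143), and that at 300 mg/kg without control 1 or 2, low 1 or 3, middle 2 or high 1 or 2 (adjusted p up to 0.139, limma). That of Atp6v0d1 was lost without high 3 (adjusted p = 0.0503, limma), and that of Rhbg at 300 mg/kg without control 2 (adjusted p = 0.0505, limma). For 3 animals against 3, an exact two-sided permutation test cannot give a p under 0.1. Of the 8 differences, 7 reached that value in the exact test, all but Slc4a1 over Slc4a2 at 600 mg/kg (exact p = 0.6). Adjusted over the 8, the smallest p was 0.114. Groups that do not overlap always reach the smallest p, so the test adds nothing to the overlap itself. Among the 7, Slc4a1 over Slc4a2 at 300 mg/kg went the other way for the brighter Slc4a1 probe, with all 3 dosed animals below the controls. With the slide as a block, the changes at 300 mg/kg were 0.38 for Slc4a1 and 0.41 for Slc4a2. Without that block the dimmer Slc4a1 probe changed by 0.36 at 300 mg/kg, beside 0.33 for Slc4a2.

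**Figure D3:**
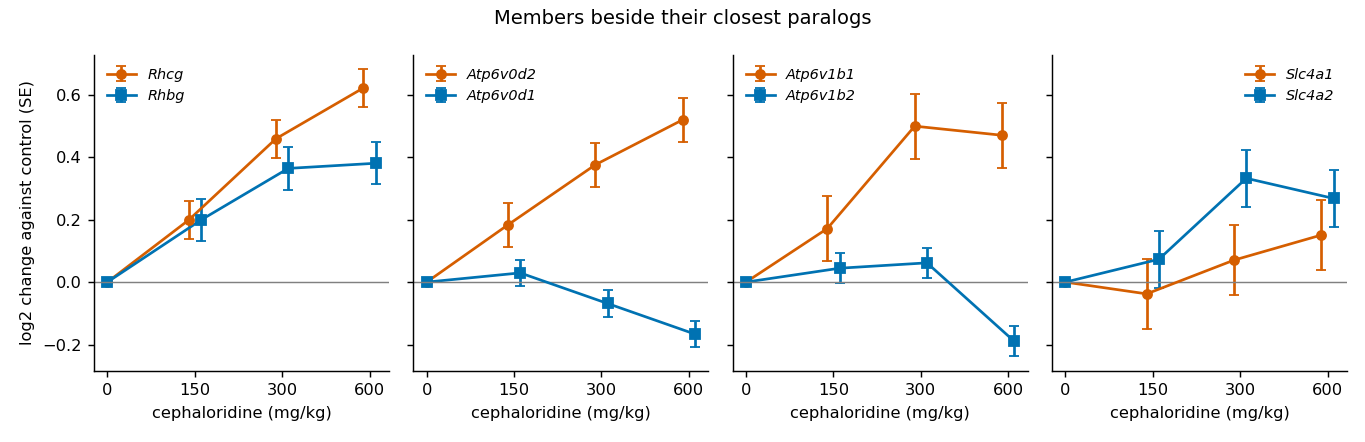
Log2 change against control (points, with the standard error from limma, 3 animals per group) of 4 members and their closest relatives at 150, 300 and 600 mg/kg, with doses evenly spaced and control set at 0. Atp6v0d2 and Atp6v1b1 lie at 0.52 and 0.47 at 600 mg/kg while Atp6v0d1 and Atp6v1b2 lie at -0.17 and -0.19.

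Of 22 other V-ATPase genes tested, 4 rose and 3 fell at 600 mg/kg, with a median of 0.063, and 5 rose and none fell at 300 mg/kg, with a median of 0.098. The 7 of 22 called at 600 mg/kg are near the 34.8% called among all genes. The 5 of 22 called at 300 mg/kg stand beside 13% of all genes called in either direction and 8.22% called higher. None of the 22 was called at 300 mg/kg with the slide as a block. The largest rises at 600 mg/kg were those of Atp6v1g2, a G subunit known from neurons, by 0.41 ± 0.08, of Atp6v0b, a proteolipid of the membrane sector, by 0.37 ± 0.07, and of Atp6v1g3, the G subunit of intercalated cells, by 0.27 ± 0.07 (adjusted p = 0.00301, 0.00224 and 0.011, limma). The largest fall was that of Atp6v0e2, by 0.24 ± 0.06 (adjusted p = 0.00995, limma; 0.06 with the slide as a block), followed by Atp6v1b2 and Atp6v0d1. Among the other intercalated cell forms, Atp6v0a4 stood at -0.22 ± 0.09 (adjusted p = 0.0751, limma) and Atp6v1c2 at 0.07 ± 0.08 (adjusted p = 0.485, limma) at 600 mg/kg. With the slide as a block, these values were 0.05 for Atp6v0a4 and 0.36 for Atp6v1c2 (adjusted p = 0.89 and 0.255, limma). Atp6v1c2 rose at 300 mg/kg, by 0.30 ± 0.08 (adjusted p = 0.0312, limma), a call lost without control 1 or 2 or middle 1 or 2 (adjusted p up to 0.114, limma). None of the 7 calls of these subunits at 600 mg/kg held with the slide as a block, and that of Atp6v1g2 was also lost with normexp background correction.

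Of 22 other genes known from intercalated cells, 20 were tested; Atp4a and Kcnma1 did not pass the filter. At 600 mg/kg 6 rose and 1 fell, with a median of 0.24, and at 300 mg/kg 6 rose and none fell, with a median of 0.26. The 7 of 20 called at 600 mg/kg are near the 34.8% called among all genes. The 6 of 20 called at 300 mg/kg stand beside 13% of all genes called in either direction and 8.22% called higher. None of the 20 was called at 300 mg/kg with the slide as a block. The largest rise was that of Atp12a, the H,K-ATPase alpha subunit of the collecting duct and colon. Its 3 levels ran from -3.68 to -3.01 in the controls, from -2.98 to -2.27 at 150 mg/kg, from -2.84 to -2.69 at 300 mg/kg and from -2.01 to -1.62 at 600 mg/kg. Atp12a was 1.44 ± 0.20 higher at 600 mg/kg (2.71-fold, adjusted p = 0.000585, limma) and 0.56 ± 0.20 at 300 mg/kg (adjusted p = 0.0885, limma). Bsnd, the barttin subunit of the basolateral chloride channels, rose by 0.65 ± 0.10 and 0.43 ± 0.10 (adjusted p = 0.0012 and 0.0258, limma), and Slc26a7, a basolateral anion exchanger of acid-secreting cells, by 0.60 ± 0.18 at 600 mg/kg (adjusted p = 0.0292, limma). The call of Slc26a7 was lost without control 1, control 2 or high 2 (adjusted p up to 0.107), and that of Bsnd at 300 mg/kg without control 1 or 2 or middle 1 or 3 (adjusted p up to 0.0845, limma). Car2, the cytosolic carbonic anhydrase that supplies protons and bicarbonate, was the gene that fell, by 0.17 ± 0.04 (adjusted p = 0.0116, limma). None of these 7 calls at 600 mg/kg held with the slide as a block.

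The proximal tubule is where ammonia is made and most bicarbonate is reabsorbed. Of 15 genes listed for these tasks, 12 were tested. The list is not specific to this segment, and it includes the widely expressed Slc4a2. At 600 mg/kg, where 34.8% of all genes were called in either direction, 1 rose and 6 fell, with a median of -0.31. At 300 mg/kg, where 13% of all genes were called, 2 rose and 1 fell, with a median of -0.042. The largest falls were those of Slc7a7, a basolateral amino acid transporter subunit, by 0.85, of Slc4a4, the sodium bicarbonate cotransporter, by 0.71, and of Pck1, the gluconeogenic enzyme linked to ammonia production, by 0.67 on the log2 scale (adjusted p = 0.000417, 0.00241 and 0.00186, limma). The gene that rose was Slc4a2. None of these 12 genes was called against control with the slide as a block, where the median at 600 mg/kg was -0.21. Between 300 and 600 mg/kg, where 22.5% of all genes were called, 7 of the 12 fell. With the slide as a block 3 of the 12 were called lower in that comparison.

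Marker genes of other cell types of the cortex are given beside the members, and their part in the members' values was not tested. Of all 20769 tested genes, 3735 rose and 3493 fell against control at 600 mg/kg, and 1708 rose and 999 fell at 300 mg/kg. Of 7 proximal tubule markers, 6 fell at 600 mg/kg (median -0.45) and none was called at 300 mg/kg (median -0.059). The summed signal of these 7 markers, in multiples of the 75th percentile, ran from 447 to 473 in the controls, 434 to 476 at 150 mg/kg, 422 to 434 at 300 mg/kg and 319 to 338 at 600 mg/kg. The summed signal of the 6 members ran from 42.9 to 47.1, 45.3 to 51.8, 51.9 to 56.2 and 52.1 to 56.8 in the same order. Bright probes weigh most in such sums: in the controls Slc26a4 gave 24.9 to 26.8 and Foxi1 0.306 to 0.354. Among distal markers, all 3 of the distal convoluted tubule rose at 600 mg/kg (median 0.39), 4 of 10 principal cell and collecting duct markers rose and none fell (median 0.14), and none of 3 of the thick ascending limb was called (median 0.18). Aqp2, the water channel of principal cells, stood at 0.15 (adjusted p = 0.052, limma) at 600 mg/kg, and at -0.11 with the slide as a block. Called with the slide as a block at 600 mg/kg were 2 of the 7 proximal tubule markers, 1 of the 3 distal convoluted tubule markers and none of the 10 collecting duct markers. Of 4 endothelial markers 3 fell, and of 3 macrophage markers 2 rose, at 600 mg/kg, and none of these 5 was called with the slide as a block.

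**Figure D4:**
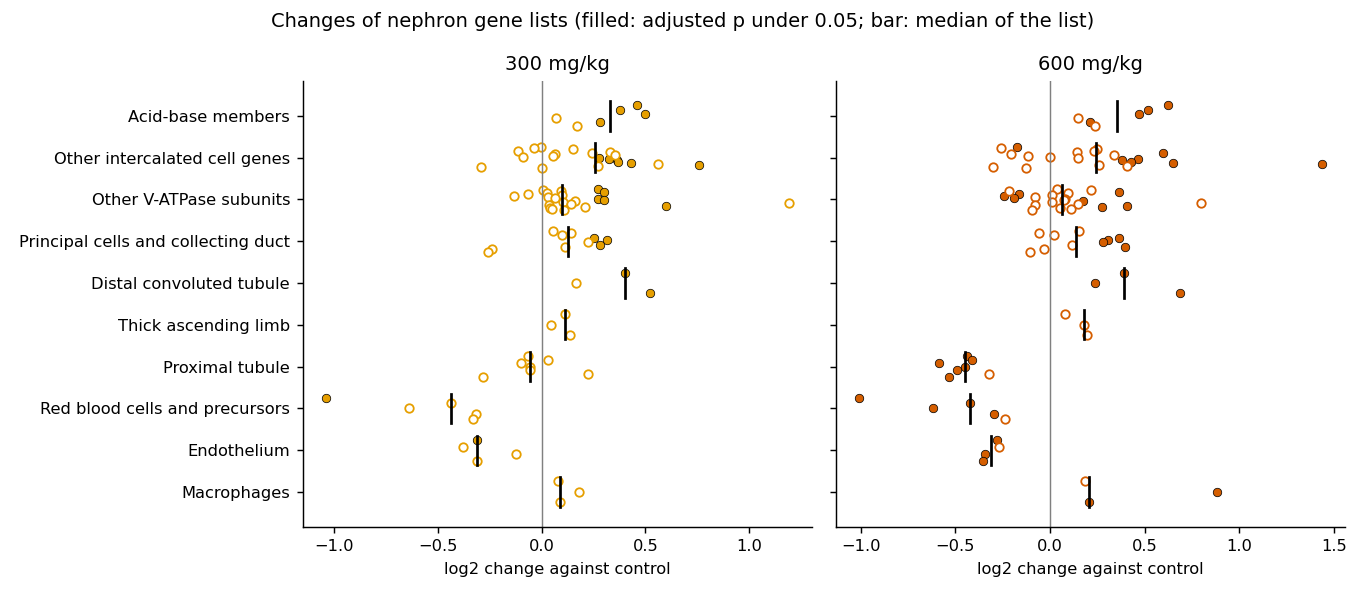
Log2 change against control at 300 and 600 mg/kg of every tested gene of each list (1 point per gene, 3 animals per group; filled points have an adjusted p under 0.05, bars mark the list median). The members have medians of 0.33 and 0.35 at the 2 doses, and the proximal tubule markers lie left of 0 at 600 mg/kg, with a median of -0.45.

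The patterns most like those of the members over the 12 arrays were sought among 11013 named genes, by Pearson correlation. These values are descriptions; the arrays share 4 dose groups, so the correlation of deviations from the group means is given second. Rhcg was closest to Hps1 (0.982 and 0.671), Abcc2 (0.973 and 0.542) and Srd5a1 (0.973 and 0.727). Atp6v0d2 was closest to Gls2 (0.98 and 0.946), Sbspon (0.979 and 0.821) and Tmem117 (0.971 and 0.868). Atp6v1b1 was closest to Rasd2 (0.939 and 0.818), with Slc26a4 (0.934 and 0.806) also among its nearest 3. Slc26a4 was closest to Tmem163 (0.945 and 0.946) and Fuca2 (0.936 and 0.752), ahead of Atp6v1b1, so these members were each among the other's nearest 3 genes, as no other pair of members was. Foxi1 was closest to Kit (0.95 and 0.959), a receptor tyrosine kinase also on the list of intercalated cell genes, then Pmm2 (0.9 and 0.856) and Mast2 (0.9 and 0.895). Slc4a1 was closest to Fam184b (0.805 and 0.733), Zfp668 (0.801 and 0.824) and Ptpn4 (0.773 and 0.797). Among pairs of members the correlation over the 12 arrays ran from 0.329 for Slc4a1 and Foxi1 to 0.963 for Rhcg and Atp6v0d2. That of deviations from the group means ran from 0.013 for Rhcg and Foxi1 to 0.851 for Rhcg and Slc26a4.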

How the data were processed

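Kidney cortex RNA of 12 rats was measured on 12 arrays. The authors' image software was Agilent Feature Extraction 9.1.3.1, which subtracted a local background and removed spatial and multiplicative trends but did not scale the arrays to each other, per the file headers. The processed, mean and background signals in the deposited files are linear intensity values, and the columns for well above background, saturation and outliers are flags. The authors' deposited value table is a linear ratio: the processed signal divided by 1 constant per array, with column medians near 1, so its scale, centring and direction are known; it was an alternative.

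Log2 processed signals were averaged over the spots of a probe without outlier spots, and the 75th percentile of the array was subtracted. The probe with the highest mean stood for a gene. A gene was tested if every array of 1 or more groups had it well above background. Tests used limma 3.58.1 in R 4.3.3, with 4 group means fitted to 12 arrays (8 residual degrees of freedom), in 6 comparisons; the script was tested on simulated data. Probes were named by accession (10735), symbol (5577) or older symbol (3730) through the RefSeq table of GRCr8; 20970 kept the name of the array design. The depth of an array cannot be counted; the number of animals limits the precision.

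The members, lists and tests were chosen with earlier results of these data known. Named were all members and their probes, up to 3 called rises and falls per pathway list at the high dose, a fixed set of relatives and intercalated cell genes, and the 3 genes most like each member, of which 1 is not reported here. Alternatives were quantile normalization, normexp background correction (offset 50), the value table, other filters, the mean of a gene's probes, only the compared groups, the replicate number, slide or scan day as a block, and leaving out each array; the second probe of Slc4a1 and the differences from relatives were added after seeing the data.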

Additional observations from a re-analysis of the deposited data

How the results depend on the processing

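The 3 animals per group and the layout of slides limit these results. Under the settings tried, all called changes of the members kept their direction. Calls were lost with the slide as a block, when single arrays were left out, with only the compared groups and, for Slc26a4, with no filter on dim probes and under quantile normalization (300 mg/kg). The slide block values against control start from a single dosed array on the slide of the controls. Genes called with the slide as a block numbered 585 at 600 mg/kg and 46 at 300 mg/kg against control, 7 at 150 mg/kg, 101 between 150 and 300, 2030 between 300 and 600 and 1317 between 150 and 600 mg/kg; members called were 1, 0 and 1 at 600 and 300 mg/kg against control and between 150 and 600 mg/kg. With no filter on dim probes the genes called were 897 at 300 mg/kg, 12 at 150 mg/kg, 14 between 150 and 300 and 3024 between 300 and 600 mg/kg. With only the compared groups they were 262, 0, 0 and 2544 in the same order, and 1 member was called at 300 mg/kg. Normexp gave 42 genes at 150 mg/kg, and the authors' values gave 29 between 150 and 300 mg/kg; scan day as a block gave 8 and 31. Quantile normalization called 1 member, Rhcg, between 300 and 600 mg/kg. The replicate number as a block gave 9 genes at 150 mg/kg and 18 between 150 and 300 mg/kg, and it changed no call of a member but ended those of Slc4a2 at both doses and of Atp6v1c2 at 300 mg/kg. The numbers did not pair the animals: the deviations of 18 same-numbered pairs correlated between -0.225 and 0.117, 1 of them over 0.1.

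Leaving out each array in turn gave 5347 to 8207 genes and 3 to 5 members at 600 mg/kg, 712 to 2715 genes and 1 to 4 members at 300 mg/kg, and 5 to 46 genes and 0 members at 150 mg/kg. It gave 12 to 90 genes between 150 and 300, 3157 to 4572 between 300 and 600 and 3773 to 6608 between 150 and 600 mg/kg. At 300 mg/kg 742 genes and 1 member, Rhcg, were called without control 1, and 712 genes and 1 member without control 2. With the authors' values, 2049 genes were higher and 722 lower at 300 mg/kg, against 1708 and 999. Changes that turned direction were all uncalled. For Slc4a1 at 150 mg/kg they were 0.18 with the mean of its probes, 0.16 with the slide block, 0.39 for its second probe, and 0.018 and 0.040 without control 3 and low 3 (range -0.14 to 0.040); from 150 to 300 mg/kg, -0.028 for the second probe; from 300 to 600 mg/kg, -0.014 without high 2 (to 0.15). For Foxi1 they were -0.016 and -0.082 from 150 to 300 mg/kg without low 3 and middle 1 (to 0.11), and -0.023 from 300 to 600 mg/kg without middle 2 (to 0.17), and for Atp6v1b1 0.037 without high 1. Rhcg over Rhbg at 300 mg/kg was -0.021 with the slide block, and Slc4a1 over Slc4a2 at 600 mg/kg was 0.10 with the mean of probes and 0.021 with the slide block. The cause of these shifts was not tested.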
